A study of Mus musculus with 6 samples.

Results

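The genes described here encode the enzymes that oxidise acyl-CoA in the mitochondrial matrix, pass the electrons on to ubiquinone and interconvert ketone bodies. Of 33 named genes, 29 were measured by a probe set that names that gene alone in the platform annotation, out of 20242 genes measured in this way. Where a gene had several such probe sets, the one with the highest mean over all arrays was used. The remaining 4 genes were Acadl, Acad10, Acad11 and Acad12. Acadl had a probe set shared with other genes, Acad10 and Acad12 shared 1 probe set, and Acad11 was named by none, so none of the 4 is reported. RNA was taken from the livers of 6 male C57BL/6 mice after a fast of 24 hours, with 1 expression array per sample. The 3 control mice carried floxed Cpt2 alleles (Cpt2f/f), and the 3 knockout mice carried the same alleles with Albumin-Cre, a hepatocyte recombinase under the promoter of the albumin gene. How far other liver cells of the knockouts keep the gene was not established, and the floxed alleles are common to both groups. The labels list ages of 9, 10 and 11 weeks for the controls and 12, 13 and 14 weeks for the knockouts, whereas the growth protocol gives 9 weeks for all of them. By the labels every knockout was older than every control, so a fit with listed age separates age from genotype poorly.

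Fatty acids enter the mitochondrion as acylcarnitines, and carnitine palmitoyltransferase II, the product of Cpt2, returns them to acyl-CoA on the matrix side. Each turn of beta-oxidation then uses an acyl-CoA dehydrogenase chosen by chain length, a hydratase, a hydroxyacyl-CoA dehydrogenase and a thiolase. Long chains use the membrane-bound trifunctional protein for the last 3 of these steps, and shorter chains use separate matrix enzymes. The dehydrogenases pass their electrons to the electron transfer flavoprotein and from there to ubiquinone. In the fasted liver the acetyl-CoA formed is turned largely into ketone bodies. Several dehydrogenases of the same family act on branched-chain and other amino acids instead and share the same electron acceptor. The comparison asks how these genes respond when hepatocytes cannot take long-chain acyl groups through this route during a fast.

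Cpt2 itself had log2 values of 7.56, 7.72 and 7.63 in control livers and 6.48, 6.73 and 6.75 in knockout livers. The groups were separated by 0.81, and limma gave a mean log2 difference of -0.99 (SE 0.11, adjusted p = 0.0013), so that Cpt2 fell. The adjusted p became 0.0692 when every probe set of the array was tested, and 0.0753 when listed age entered the fit. Where the probe set lies relative to the deleted part was not established, and RNA of other liver cells enters the value.

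Of the 29 measured genes, 3 rose, 3 fell and 23 did not pass an adjusted p of 0.05. Those that rose were Hadhb and Decr1, which act in the oxidation of straight-chain fatty acids, and Etfdh. Etfdh acts in the transfer of electrons from the dehydrogenases of fatty acids and of amino acids alike. Acadsb and Hibadh, of branched-chain amino acid breakdown, fell, as did Echdc3, a hydratase relative. Over all genes 4.74% rose and 3.49% fell, or 8.24% in either direction, against 10.3% each way and 20.7% in either direction among the 29. All 6 changes were below 2-fold on the linear scale. The median log2 fold change of the 29 genes was 0.08, beside -0.01 over all genes, and 16 of the 29 were positive. No test was made of these shares or medians, which describe these genes only. Of the 29 genes, 28 lay above the median level of all genes, and shares among genes of like level were not taken. When every probe set was tested, when the variances were not moderated, or when listed age entered the fit, 0 of the 29 passed by limma (9, 11 and 6 at an unadjusted p under 0.05). The groups did not overlap in 16 of the 29 genes, with the knockouts above in 6 and below in 10, against 13.9% above and 11.1% below over all genes. With 3 arrays per group, their number sets the limit of precision.

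**Figure D1:**
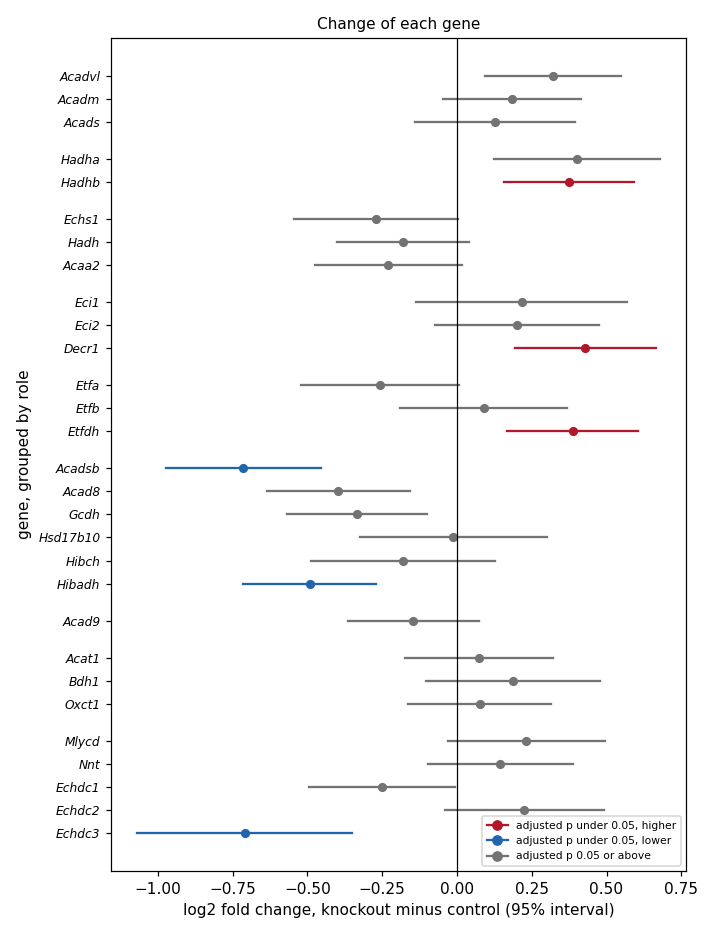
Log2 fold change of knockout against control (x axis) for the 29 measured genes (y axis), in blocks by role, with the 95% interval of the moderated limma estimate; red and blue mark adjusted p under 0.05. The straight-chain dehydrogenases and the trifunctional protein lie right of 0, the matrix hydratase, dehydrogenase and thiolase and 5 of the 6 amino acid enzymes lie left of it, with Hsd17b10 at -0.01 as reported and at 0.10 after quantile normalization, and 3 genes in each direction passed.

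RefSeq promoter windows, 250 bases before to 50 bases after each gene's start, were available for 24 of the 29 genes in build GRCm38.p6, which is not the build named for the arrays. They are shown 5′ to 3′ along the gene for Hadhb (chr5:30155003-30155302, + strand), Etfdh (chr3:79628718-79629017, - strand), Acadsb (chr7:131410351-131410650, + strand), Hibadh (chr6:52640251-52640550, - strand) and Echdc3 (chr2:6212945-6213244, - strand), because these genes passed the test. Decr1, which also passed, had no window. Capitals mark matches on either strand to GGGCGG, the GC box bound by Sp-family factors, and to AGGTCA, the element repeated in many nuclear receptor sites.
Hadhb: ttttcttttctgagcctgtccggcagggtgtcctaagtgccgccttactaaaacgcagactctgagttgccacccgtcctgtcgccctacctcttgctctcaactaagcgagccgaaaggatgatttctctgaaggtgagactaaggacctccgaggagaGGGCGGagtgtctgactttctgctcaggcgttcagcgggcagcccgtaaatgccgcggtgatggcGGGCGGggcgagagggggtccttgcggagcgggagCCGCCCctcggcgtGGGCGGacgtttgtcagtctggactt
Etfdh: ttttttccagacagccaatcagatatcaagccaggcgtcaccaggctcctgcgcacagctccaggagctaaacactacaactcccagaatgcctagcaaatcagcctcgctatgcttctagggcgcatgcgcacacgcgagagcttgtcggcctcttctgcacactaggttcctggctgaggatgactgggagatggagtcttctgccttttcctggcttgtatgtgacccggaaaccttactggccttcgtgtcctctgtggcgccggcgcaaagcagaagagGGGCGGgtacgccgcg
Acadsb: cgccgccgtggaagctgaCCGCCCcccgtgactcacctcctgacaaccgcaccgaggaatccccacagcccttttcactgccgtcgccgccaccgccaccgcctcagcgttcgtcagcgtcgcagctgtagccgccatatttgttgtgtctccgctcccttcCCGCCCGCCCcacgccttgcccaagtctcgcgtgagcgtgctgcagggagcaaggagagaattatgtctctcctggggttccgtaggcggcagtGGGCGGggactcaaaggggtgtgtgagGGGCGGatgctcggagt
Hibadh: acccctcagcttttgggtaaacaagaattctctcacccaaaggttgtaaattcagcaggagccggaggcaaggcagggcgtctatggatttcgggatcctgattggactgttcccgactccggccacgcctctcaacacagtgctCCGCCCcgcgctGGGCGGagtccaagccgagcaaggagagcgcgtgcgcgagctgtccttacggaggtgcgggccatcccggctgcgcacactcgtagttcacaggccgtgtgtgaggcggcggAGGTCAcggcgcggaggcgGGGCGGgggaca
Echdc3: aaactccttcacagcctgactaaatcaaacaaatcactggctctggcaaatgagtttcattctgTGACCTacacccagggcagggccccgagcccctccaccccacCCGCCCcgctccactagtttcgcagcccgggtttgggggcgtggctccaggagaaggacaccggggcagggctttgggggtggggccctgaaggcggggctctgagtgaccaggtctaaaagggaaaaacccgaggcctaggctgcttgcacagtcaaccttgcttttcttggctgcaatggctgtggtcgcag
GGGCGG was present in 18 of the 24 windows (75.0%) and in 35.9% of 27025 windows, 1 for each gene in the table. AGGTCA was present in 5 of 24 (20.8%) and in 16.0% of all windows; the 5 genes were Acadvl, Acadm, Echs1, Hibadh and Echdc3. The DR1 consensus, in which that element is repeated with a free base between the copies and another within each, and which PPARA binds with RXR, was matched in 0 of 24 windows and in 0.381% of all windows. No AGGTCA lay in the windows of Hadhb and Etfdh, which rose, or of Acadsb, which fell, and 1 lay in each of Hibadh and Echdc3, which fell too. A match is a description of letters in these windows and not of binding.

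Among the dehydrogenases that open each turn, the enzyme of the longest chains had the largest difference, but none passed the test. Acadvl, the very-long-chain enzyme of the inner membrane, had values of 8.08, 8.02 and 8.03 in control livers and 8.24, 8.37 and 8.48 in knockout livers. The groups did not overlap, and the difference was 0.32 (95% interval 0.09 to 0.55, adjusted p = 0.0974). Acadm, the medium-chain enzyme, had 8.39, 8.49 and 8.29 in control livers and 8.51, 8.54 and 8.67 in knockout livers, a difference of 0.18 (-0.05 to 0.41, adjusted p = 0.376). Its groups were separated by only 0.02. Acads, the short-chain enzyme, overlapped between the groups, with 7.67, 7.66 and 7.75 against 7.61, 7.89 and 7.97 (difference 0.13, interval -0.14 to 0.40, adjusted p = 0.659). The intervals of the 3 differences overlap, and they were not tested against one another. Acads exceeded Acadm without control replicate 3 (0.16 and 0.13) and without knockout replicate 1 (0.24 and 0.22). When listed age entered the fit, the difference of Acads was -0.20 (adjusted p = 0.929).

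The trifunctional protein, whose alpha and beta subunits are encoded by Hadha and Hadhb, lay above the controls on every knockout array for both subunits, and 1 of the 2 passed. Hadhb, the thiolase subunit, had values of 8.71, 8.68 and 8.71 in control livers and 9.18, 8.98 and 9.07 in knockout livers. The control values lay within a narrow band, and every knockout array lay above them by at least 0.26. Hadhb rose by 0.37 on the log2 scale (a change of 29.7%, SE 0.09, adjusted p = 0.0487). Hadha, the hydratase and long-chain hydroxyacyl-CoA dehydrogenase subunit, had 8.93, 8.76 and 8.76 in control livers and 9.04, 9.21 and 9.41 in knockout livers. Its difference of 0.40 (SE 0.12) was slightly larger than that of Hadhb, but its knockout SD of 0.19 was also larger, and it did not pass (adjusted p = 0.0904). The genes start 273 bases apart on opposite strands of chromosome 5 in GRCm38.p6, at 30154980 and 30155253, so that the Hadhb window printed above shares 228 bases with that of Hadha. Hadhb had 2 further probe sets. One gave 8.55, 8.48 and 8.51 in control livers and 8.97, 8.98 and 9.20 in knockout livers, a difference of 0.53, and the other overlapped between the groups, with a difference of 0.09. With the mean of the 3 probe sets the adjusted p of Hadhb was 0.213. Its call was also lost whichever array was left out (adjusted p = 0.0611 to 0.155).

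The separate matrix enzymes that carry shorter chains through the later steps had differences of the opposite sign, although none passed. Echs1, the short-chain enoyl-CoA hydratase, had 6.77, 6.74 and 7.08 in control livers and 6.54, 6.54 and 6.69 in knockout livers (difference -0.27, interval -0.55 to 0.00, adjusted p = 0.253). Hadh, the short-chain hydroxyacyl-CoA dehydrogenase, had 7.26, 7.30 and 7.39 against 7.20, 7.03 and 7.18 (-0.18, -0.40 to 0.04, adjusted p = 0.368). Acaa2, the matrix thiolase, had 9.28, 9.37 and 9.50 against 9.02, 9.25 and 9.18 (-0.23, -0.48 to 0.02, adjusted p = 0.291). In each of the 3 genes every knockout array lay below every control array by 0.02 to 0.07. The contrast between them and the trifunctional protein was not tested.

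Of the auxiliary enzymes that prepare unsaturated chains, 1 of 3 rose. Decr1, the dienoyl-CoA reductase, had 8.65, 8.72 and 8.60 in control livers and 8.94, 9.13 and 9.19 in knockout livers. No knockout array came within 0.22 of the highest control, and the gene rose by 0.43 on the log2 scale (a change of 34.7%, SE 0.10, adjusted p = 0.0402), the largest increase among the 29 in this fit. Hadha exceeded Decr1 without control replicate 1 (0.46 and 0.43). Hadhb did so without knockout replicate 2 (0.42 and 0.41) and with listed age in the fit (0.45 and 0.28). The call of Decr1 held without knockout replicate 1 (adjusted p = 0.0395) and was lost without any of the other 5 arrays (0.0904 to 0.138). Eci1 and Eci2, isomerases that move double bonds, differed by 0.22 and 0.20 (adjusted p = 0.529 and 0.434). In both of them knockout replicate 1 lay among the controls, at 6.31 for Eci1 and 8.30 for Eci2, while knockout replicates 2 and 3 reached 6.61 and 6.82 for Eci1 and 8.57 and 8.70 for Eci2.

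In electron transfer, 1 of 3 genes rose. Etfdh encodes the iron-sulphur flavoprotein that hands electrons to ubiquinone, and had 7.86, 7.91 and 7.81 in control livers and 8.17, 8.22 and 8.34 in knockout livers. All knockout arrays lay above the controls by at least 0.26, and Etfdh rose by 0.39 on the log2 scale (a change of 30.7%, SE 0.10, adjusted p = 0.044). As for Hadhb, the call was lost whichever array was left out (adjusted p = 0.0768 to 0.151). Etfa, the alpha subunit of the soluble flavoprotein, had 7.10, 6.89 and 6.98 against 6.63, 6.65 and 6.92 (difference -0.26, interval -0.52 to 0.01, adjusted p = 0.26). Knockout replicate 3 lay within the control range, so the Etfa groups overlapped. Etfb, the beta subunit, had 7.11, 7.19 and 6.92 against 6.97, 7.26 and 7.26, a difference of 0.09 (-0.19 to 0.37, adjusted p = 0.806).

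**Figure D2:**
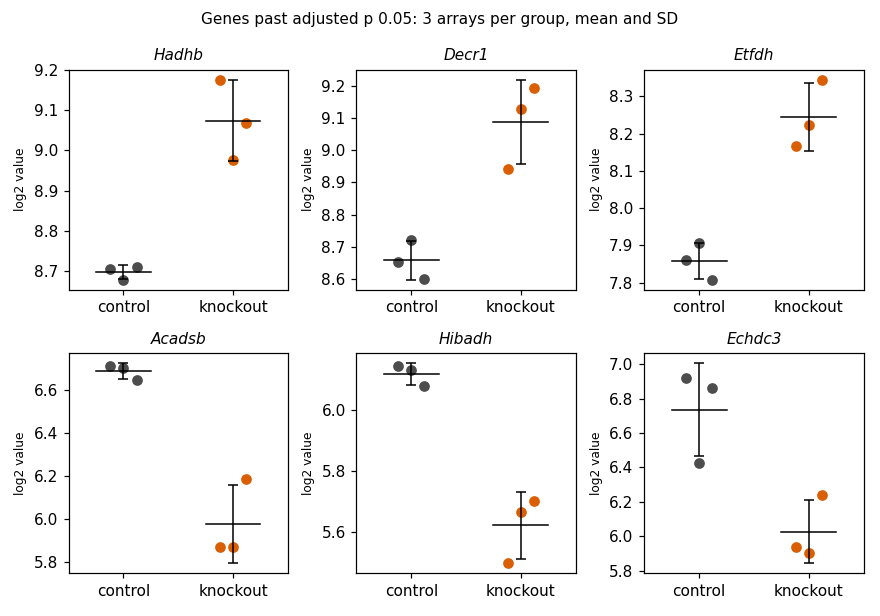
Log2 values (y axes, each with its own range) of the 6 genes with an adjusted p under 0.05, as 1 point per array for 3 controls and 3 knockouts, with the group mean and SD. The groups do not overlap in any of the 6; Hadhb has the tightest controls, and Echdc3 the widest.

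Of 6 enzymes of branched-chain and other amino acids, 2 fell and 4 did not pass. All 6 differences were negative, but that of Hsd17b10 was positive in 5 of the 17 alternatives. It was 0.10 after quantile normalization, 0.01 with arrays centred on their medians, 0.26 when listed age entered the fit, 0.12 without control replicate 1 and 0.03 without knockout replicate 1. Acadsb, the dehydrogenase of 2-methylbutyryl-CoA from isoleucine, had 6.71, 6.71 and 6.65 in control livers and 5.87, 5.87 and 6.19 in knockout livers. Knockout replicate 3 was the nearest to the controls and still lay 0.46 below the lowest of them. Acadsb fell by 0.71 on the log2 scale (a change of -39.0%, SE 0.11, adjusted p = 0.00658), and the call held when any single array was left out (adjusted p = 0.00499 to 0.0293). Its 2 further, dimmer probe sets differed by -0.56 and -0.90. In the first of these, knockout replicate 3, at 5.53, lay within the control range of 4.98 to 5.62. With the mean of the 3 probe sets the difference was -0.73 and the adjusted p 0.0635. Hibadh, the 3-hydroxyisobutyrate dehydrogenase of valine breakdown, had 6.14, 6.13 and 6.08 in control livers and 5.50, 5.67 and 5.70 in knockout livers, and fell by 0.49 on the log2 scale (a change of -28.9%, SE 0.10, adjusted p = 0.0173). That call held without knockout replicate 2 or 3 (adjusted p = 0.0427 and 0.0295) and was lost without knockout replicate 1 or any 1 control (0.0564 to 0.0668). Acad8, the isobutyryl-CoA dehydrogenase of the same route, lay just outside the threshold, with 6.88, 6.84 and 6.71 against 6.40, 6.30 and 6.54 (difference -0.40, SE 0.10, adjusted p = 0.0568). Acad8 passed in 4 of the 17 alternatives. Hibch, the 3-hydroxyisobutyryl-CoA hydrolase, overlapped between the groups (-0.18, interval -0.49 to 0.13, adjusted p = 0.558).

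Gcdh, the glutaryl-CoA dehydrogenase of lysine and tryptophan breakdown, had 8.86, 8.98 and 9.09 in control livers and 8.67, 8.57 and 8.69 in knockout livers. The groups did not overlap, and the difference was -0.33 (SE 0.10, adjusted p = 0.0936). Hsd17b10, a dehydrogenase of isoleucine breakdown that is also a subunit of mitochondrial RNase P, did not pass. Its difference was -0.01 (interval -0.33 to 0.30, adjusted p = 0.983), and its controls ranged from 8.45 to 8.95, wider than the knockouts at 8.59 to 8.73. Acad9, an acyl-CoA dehydrogenase relative that serves in the assembly of respiratory complex I, had 6.02, 5.92 and 5.92 against 5.70, 5.85 and 5.87 (-0.15, -0.37 to 0.07, adjusted p = 0.488). Its groups were separated by 0.05, and its 2 dimmer probe sets differed by -0.14 and -0.08.

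Of the ketone body enzymes, 0 of 3 passed. Acat1, the acetoacetyl-CoA thiolase, had 7.59, 7.67 and 7.47 in control livers and 7.60, 7.55 and 7.80 in knockout livers (difference 0.07, interval -0.17 to 0.32, adjusted p = 0.826). Bdh1, which reduces acetoacetate to 3-hydroxybutyrate, had 6.85, 6.93 and 7.23 against 7.06, 7.31 and 7.20 (0.19, -0.10 to 0.48, adjusted p = 0.502). Oxct1, the transferase by which other tissues use ketone bodies and which hepatocytes largely lack, had 2.59, 2.66 and 2.48 against 2.57, 2.79 and 2.60. Its difference was 0.08 (-0.16 to 0.31, adjusted p = 0.807), and on each of the 6 arrays it lay below that array's median over all probe sets. All 3 genes overlapped between the groups, and the unadjusted p was above 0.05 for each.

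The last 5 genes have no common step. Echdc3, a mitochondrial protein of the enoyl-CoA hydratase family, had 6.92, 6.43 and 6.86 in control livers and 5.94, 5.90 and 6.24 in knockout livers. Control replicate 2 was the lowest control and still lay 0.19 above the highest knockout. Echdc3 fell by 0.71 on the log2 scale (a change of -38.9%, SE 0.16, adjusted p = 0.0284), and its second probe set differed by -0.95, with 6.37, 6.26 and 6.59 against 5.55, 5.29 and 5.55. The call held without control replicate 2 or knockout replicate 3 (adjusted p = 0.014 and 0.0352) and was lost without any of the other 4 arrays (0.0875 to 0.0978). Its relatives did not pass. Echdc1, which clears ethylmalonyl-CoA, had 4.59, 4.45 and 4.58 against 4.14, 4.37 and 4.37 (-0.25, -0.49 to -0.01, adjusted p = 0.235), and Echdc2 differed by 0.23 (-0.04 to 0.49, adjusted p = 0.346). Mlycd, the malonyl-CoA decarboxylase, had 7.08, 6.96 and 7.08 against 7.07, 7.39 and 7.36 (0.23, -0.03 to 0.49, adjusted p = 0.319), and knockout replicate 1 lay among the controls. Nnt, the transhydrogenase that makes NADPH in the matrix, had 7.11, 7.11 and 7.28 against 7.22, 7.26 and 7.45 (0.14, -0.10 to 0.39, adjusted p = 0.547). The C57BL/6J substrain carries a partial deletion of Nnt, and the labels give C57BL/6 without a substrain.

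**Figure D3:**
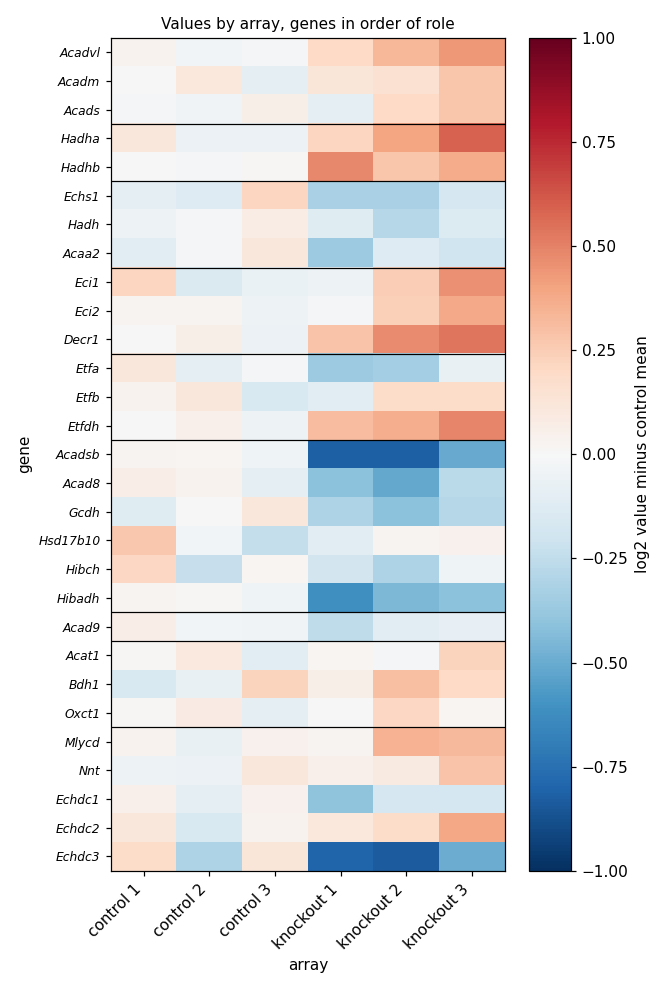
Log2 value of each of the 29 genes (rows, in order of role, with lines between roles) on each of the 6 arrays (columns), as the difference from the control mean of that gene; red is higher and blue lower. Among the knockouts, replicate 3 has the highest value in 22 of 29 rows, whether the gene is higher or lower than in the controls.

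The 3 knockout livers differed among themselves in a shared way. Knockout replicate 3 had the highest of the 3 knockout values in 22 of the 29 genes (75.9%), against 32.1% of all genes, and knockout replicate 1 in 2 of them (6.90%), against 28.6%. After quantile normalization of the arrays, replicate 3 was still highest in 21 of 29 (72.4%, against 39.0% of all genes). Among controls the shares for replicates 1 to 3 were 44.8%, 24.1% and 31.0%, against 30.4%, 35.5% and 34.1% of all genes. They moved to 17.2%, 31.0% and 51.7% after quantile normalization, against 27.3%, 32.8% and 39.8% of all genes. The median SD of the 29 genes was 0.10 in the controls and 0.12 in the knockouts, beside 0.12 and 0.14 over all genes. Knockout replicate 3 also had the lowest median over all probe sets, 2.78 against 2.87 to 2.93 on the other arrays, and the highest listed age. The part of these in the pattern was not tested. Without knockout replicate 3, 0 of the 29 genes rose and 3 fell by limma (5 and 8 at an unadjusted p under 0.05).

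The genes that surround this pathway were counted from lists by role. In the carnitine shuttle, 2 of 6 measured genes rose and Cpt2 fell. Slc22a5, the plasma membrane carnitine transporter, rose by a log2 value of 1.01 (SE 0.14, adjusted p = 0.00388), and Crat, which makes short-chain acylcarnitines, by 0.86 (SE 0.11, adjusted p = 0.00203). Cpt1a and Slc25a20, which act just before Cpt2, had differences of 0.27 and 0.28 (adjusted p = 0.221 and 0.15). Of 6 measured genes of ketone body handling and export, 3 rose and 1 fell. Aacs, the cytosolic acetoacetyl-CoA synthetase, rose by 0.97 (SE 0.12, adjusted p = 0.00228), the monocarboxylate transporters Slc16a1 and Slc16a6 by 0.80 and 0.95 (adjusted p = 0.00276 and 0.0136), and Bdh2, a cytosolic dehydrogenase, fell by 0.90 (SE 0.11, adjusted p = 0.00186). Bdh2 was dim, with 4.12, 4.19 and 4.43 in control livers and 3.33, 3.39 and 3.32 in knockout livers. The array medians over all probe sets were 2.78 to 2.93. Slc16a6 lost its call without control replicate 2 (adjusted p = 0.054) or 3 (0.0527) and with the mean of its probe sets (0.521).

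Of 8 measured genes of FAD supply, modification of the electron transfer flavoprotein and other dehydrogenases that pass electrons to it, 3 fell and 0 rose. Sardh and Dmgdh, which oxidise sarcosine and dimethylglycine, fell by 1.03 and 0.53 on the log2 scale (SE 0.09 and 0.13, adjusted p = 0.000477 and 0.0386), and Ivd, of leucine breakdown, by 0.70 (SE 0.10, adjusted p = 0.00383). Sardh values were 9.68, 9.57 and 9.67 in control livers and 8.54, 8.64 and 8.66 in knockout livers, with a gap of 0.91 between the groups. Dmgdh lost its call whichever array was left out (adjusted p = 0.0554 to 0.12). Etfbkmt, a methyltransferase of the flavoprotein beta subunit, had 7.02, 7.24 and 7.28 in control livers and 5.97, 6.52 and 6.96 in knockout livers (difference -0.70, adjusted p = 0.114). Its knockout SD was 0.50, against 0.14 in the controls.

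**Figure D4:**
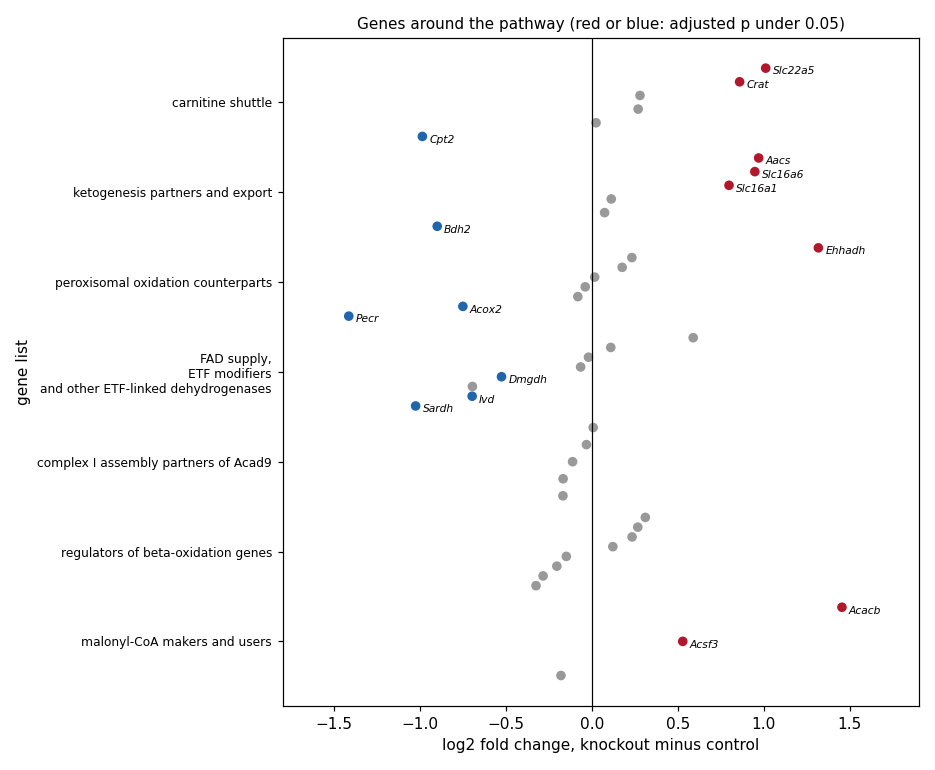
Log2 fold change of knockout against control (x axis) for measured genes of 7 lists around the pathway (y axis), 1 point per gene, with names for genes at adjusted p under 0.05, red for higher and blue for lower. The called genes of FAD supply and flavoprotein-linked dehydrogenases all lie left of 0, those of the malonyl-CoA list lie right of it, and the regulators and complex I partners have none.

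In the peroxisome, which shortens very long chains with its own enzymes, 1 of 8 measured genes rose and 2 fell. Ehhadh, the bifunctional hydratase and dehydrogenase, rose by 1.32 (SE 0.13, adjusted p = 0.000713), Pecr, a reductase of trans-2-enoyl-CoA, fell by 1.41 (SE 0.10, adjusted p = 0.000166), and Acox2, an oxidase of branched chains and bile acid intermediates, fell by 0.75 (SE 0.13, adjusted p = 0.00875). Ech1, which sits in mitochondria and peroxisomes, had a difference of 0.23 (adjusted p = 0.228). Among genes of malonyl-CoA, the inhibitor of carnitine palmitoyltransferase I, 2 of 3 rose. Acacb, the carboxylase at the outer mitochondrial membrane, had 6.03, 5.80 and 5.91 in control livers and 7.25, 7.39 and 7.46 in knockout livers, and rose by 1.45 (SE 0.11, adjusted p = 0.000209). Acsf3, the mitochondrial malonyl-CoA synthetase, rose by 0.53 (SE 0.12, adjusted p = 0.027), a call that held only without knockout replicate 2 (0.0249) among the 6 fits that left out an array (up to 0.103). Acaca, the remaining gene of the 3, had a difference of the opposite sign, -0.18, and did not pass (adjusted p = 0.437). Its groups overlapped. Mlycd, which removes malonyl-CoA and is not among these 3, did not pass either, as given above.

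Of 8 regulators of these genes, 0 passed by limma. Ppara, the fatty acid receptor that drives beta-oxidation genes in fasting, had 9.65, 10.10 and 9.88 in control livers and 9.97, 10.10 and 10.25 in knockout livers (difference 0.23, adjusted p = 0.419). Rxra, its partner, differed by -0.33 (adjusted p = 0.0918) and the mitochondrial deacetylase Sirt3 by -0.28 (adjusted p = 0.132), with no overlap between the groups for either. Hnf4a, another of the 8, differed by -0.20 (adjusted p = 0.325) and was also below without overlap, by 0.02. Over all genes 11.1% lay below the controls in this way. Ppargc1a differed by 0.31 (adjusted p = 0.72), with an SD of 0.65 among the knockouts. Of 5 measured partners of Acad9 in complex I assembly, 0 passed, and their differences ran from -0.17 to 0.01. Of the 15 genes of these lists that passed, Cpt2 included, only Pecr did so when listed age entered the fit, and only Ehhadh, Pecr, Sardh and Acacb when every probe set was tested.

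Markers of liver cell types were read beside these values. Of 4 measured hepatocyte markers, Alb and Ttr fell, by 0.69 and 0.51 on the log2 scale (adjusted p = 0.0097 and 0.0362). The summed linear level of the 4 was 12721 to 14900 in the controls and 10257 to 13064 in the knockouts, and that of Cps1 and Tat, which did not pass, was 8271 to 10104 and 7460 to 9676. Of 8 macrophage and Kupffer cell markers, Cd68, a lysosomal membrane protein, rose by 2.32 (adjusted p = 0.000358) and the other 7 did not pass. Of those 7, 6 had negative differences, and Clec4f, Adgre1, Csf1r and Itgam lay below every control on all knockout arrays (differences of -0.28, -0.41, -0.33 and -0.18). Over all genes 11.1% lay below the controls in this way. The gap of Itgam was only 0.02 (adjusted p = 0.545). The summed level of the 8 was 652 to 921 in the controls and 888 to 1259 in the knockouts, but without Cd68, a split made after the values were seen, it was 571 to 809 and 515 to 652. Of 5 sinusoidal endothelial markers, Lyve1 rose by 0.92 (adjusted p = 0.00183, and 0 of the other 4 passed). The summed level of the 5 was 713 to 799 and 863 to 930, and that of the 4 without Lyve1 was 523 to 596 and 496 to 606, so the separation of the sums rested on Lyve1. Of 5 stellate cell, 3 cholangiocyte, 3 lymphocyte and 3 neutrophil markers, 0 passed. Summed levels were 339 to 360 in the controls and 307 to 396 in the knockouts for stellate cells, 64.7 to 73.6 and 47.7 to 62.6 for cholangiocytes, 41.1 to 43.1 and 41.2 to 45.6 for lymphocytes, and 16.2 to 20.0 and 16.5 to 21.2 for neutrophils. The cholangiocyte sums did not overlap between the groups, and the differences of all 3 cholangiocyte markers were negative. The values carry no detection calls, so no marker can be called absent. The part of cell composition in the changes above was not tested, and in whole liver fewer cells of a type and less RNA per cell cannot be told apart.

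**Figure D5:**
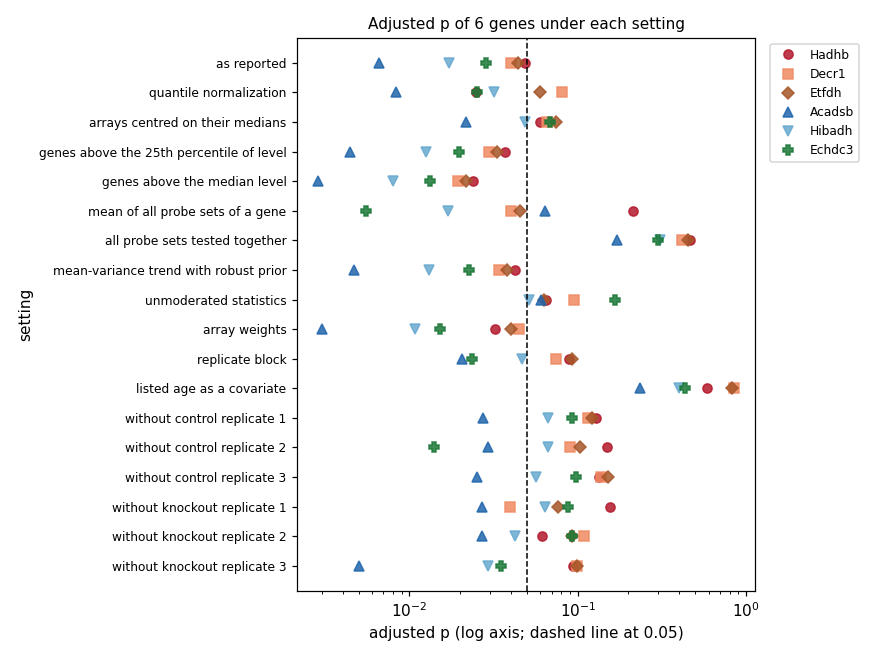
Adjusted p (x axis, log scale, dashed line at 0.05) of the 6 genes that passed, for the fit as reported and 17 alternatives (y axis). Acadsb lies left of the line in 13 of the 17 alternatives, including all 6 that leave out an array, Hibadh in 10, Echdc3 in 9, Decr1 in 6, and Hadhb and Etfdh in 5 each.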

How the data were processed

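Liver RNA of 6 mice was labelled with biotin and hybridised to 1 array each, per the labels' protocols. The values deposited by the authors are log2 intensities summarised per probe set. The submitters' processing notes name Partek, RMA and mm9 but give no versions, and RMA options were not stated. RMA compresses changes of dim probe sets. All 6 columns were used. Of 115050 probe sets, 25469 named 1 gene and 2286 several. Entrez identifiers of 24878 matched RefSeq, changing 0 symbols. The probe set with the highest mean stood for each of 20242 genes. Knockout and control were compared in limma 3.58.1 (R 4.3.3) by a two-sided moderated test without covariates (4.23 prior degrees of freedom), with Benjamini-Hochberg adjustment over all genes and a threshold of 0.05. SE, 95% intervals and adjusted p come from this fit and SD from the 3 arrays of a group. The fit was tested on simulated data. The labels call the samples biological replicates. The genes, gene lists and tests were chosen with earlier results of these data known. Every measured gene of the set is named, and of each surrounding list up to 4 genes past the threshold with the largest change; others were named after their values were seen. Alternatives covered normalization, dim genes, probe sets, the variance model, array weights, replicate number, listed age and each array left out.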

Additional observations from a re-analysis of the deposited data

How the results depend on the processing

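The 3 higher and 3 lower genes of the set were counted again under 17 alternatives by limma, and no gene changed sign while passing in either fit. With quantile normalization 1 gene was higher, and with arrays centred on their medians 0 were (5 at an unadjusted p under 0.05). Over genes above the median level 4 were higher and 5 lower. There Hadha, Gcdh and Acad8 passed as well (adjusted p = 0.0464, 0.0486 and 0.0282). With all 115050 probe sets tested together 0 were higher and 0 lower (4 and 5 unadjusted), and likewise 0 and 0 when variances were not moderated (5 and 6). When listed age entered the fit 0 and 0 passed (0 and 6 unadjusted). The median over the 29 genes went from 0.08 to -0.15, and 5 genes that had not passed changed sign. In each genotype the listed ages follow the order of the replicates, and every knockout is listed as older than every control. Age and genotype are thus poorly separated in that fit, where the SE was 0.224 for Cpt2 and 0.245 for Acadsb. Leaving out 1 array at a time gave 0 to 1 higher and 1 to 3 lower genes, with Acadsb among the lower ones each time. Whether the replicate numbers pair the mice was not established. Correlations of same-numbered deviations from the group means were 0.07, 0.18 and -0.08, and with 3 arrays per group they cannot decide it. With the replicate block 0 were higher (5 unadjusted) and 3 lower. Knockout replicates 1 and 2 and control replicate 2 correlated best with their own number, and knockout replicate 3 and control replicates 1 and 3 did not. The change of Cpt2 was -0.99 with all probe sets, where its adjusted p was 0.0692, and -1.24 with listed age (0.0753); it passed in the other 15 alternatives. Where calls were lost with arrays left out, fewer samples were tested. With all probe sets more features were tested, and the moderated SE changed as well. It went from 0.109 to 0.146 for Cpt2 and from 0.114 to 0.15 for Acadsb. The part of each in the lost calls, and other causes, were not tested. Oxct1 was not tested in the 2 fits without dim genes. The deposited values carry no detection calls, so signal over background was not used.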
